A study of Mus musculus with 9 samples.

Results

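Crem, Fhl5, Rfx2, Rfx3, Sox30, Tbpl1, Tcfl5, Mybl1, Taf7 and Gtf2a1l encode transcription regulators and were chosen by name. Most are known for work in germ cells late in meiosis or in spermatids. These 10 genes are 10 of the 38685 genes and loci in the deposited table. The table holds RNA of testes, freed of the tunica albuginea, from C57BL/6 males of 3 genotypes, with 3 libraries each. Prm2+/+ males are wildtype, Prm2+/- males carry 1 edited copy of the protamine gene Prm2, and Prm2-/- males carry no intact copy. The Prm2 lines had been made by CRISPR/Cas9 editing in oocytes, so every cell of the mouse carries the allele. The ages of the males are not given in the sources used here, and the study describes the libraries as biological replicates. RNA was sequenced with QuantSeq, which reads polyadenylated transcripts near their 3′ end.

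Round spermatids still transcribe their genome, and transcription ends in elongating spermatids, in which protamines come to replace most histones. CREM, a factor of the CREB family, binds cAMP response elements (CRE) and switches on many post-meiotic genes. Its coactivator FHL5, also called ACT, works in germ cells without the phosphorylation that CREB-type factors need elsewhere. RFX2 and RFX3 bind the X-box of ciliary and flagellar genes. SOX30 is an HMG-box factor of spermatids, and MYBL1 (A-MYB) and TCFL5 act from the pachytene stage of meiosis onwards. TBPL1 is a relative of the TATA-binding protein, GTF2A1L is the germ cell form of the large TFIIA subunit, and TAF7 is a subunit of TFIID. The comparisons ask whether the transcripts of these regulators differ in testes that lack 1 or both copies of Prm2.

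To show the sequence in front of these genes, the 250 bases before the annotated starts were searched on both strands for short core motifs that CREB, RFX, SOX and MYB proteins are known to bind. RefSeq windows (GRCm38) were searched for 7 of the 10 genes, in 8 windows, since Fhl5 has a pair of starts. Crem, Mybl1 and Taf7 were not searched, so the counts of windows do not cover them. The full CRE, TGACGTCA, was in 0 of the 8 windows and in 1.55% of all 32851 windows. Its shorter core TGACG, which is also part of the full element, was in 1 window, that of Rfx2, and in 17.8% of all windows. The X-box core GTTGCC was in 2 of the 8 windows, those of Rfx2 and Gtf2a1l, and in 10.4% of all. The SOX core ACAAT was in 2 windows, those of Fhl5 and Sox30, and in 27.7% of all. The MYB core AACTG was in 3 windows, those of the second Fhl5 start, Tbpl1 and Tcfl5, and in 39.1% of all. The 4 windows with a CRE, X-box or SOX core are shown, since Rfx2 and Sox30 hold the core that their own protein family binds. Capitals mark the cores, and each window runs 5′ to 3′ on the strand of its gene and ends at the base before the start.
Rfx2, chr17:56831009-56831258, minus strand: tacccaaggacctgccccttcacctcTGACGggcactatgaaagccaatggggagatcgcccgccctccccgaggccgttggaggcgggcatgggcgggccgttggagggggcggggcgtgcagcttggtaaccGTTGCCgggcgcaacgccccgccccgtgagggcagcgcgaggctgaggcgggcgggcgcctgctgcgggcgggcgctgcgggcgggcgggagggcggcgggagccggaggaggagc
Gtf2a1l, chr17:88668410-88668659, plus strand: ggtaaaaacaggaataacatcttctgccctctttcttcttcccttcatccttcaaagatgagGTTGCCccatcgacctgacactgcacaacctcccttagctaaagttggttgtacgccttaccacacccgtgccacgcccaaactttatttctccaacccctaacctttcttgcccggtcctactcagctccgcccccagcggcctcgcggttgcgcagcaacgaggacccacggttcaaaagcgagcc
Sox30, chr11:45980060-45980309, plus strand: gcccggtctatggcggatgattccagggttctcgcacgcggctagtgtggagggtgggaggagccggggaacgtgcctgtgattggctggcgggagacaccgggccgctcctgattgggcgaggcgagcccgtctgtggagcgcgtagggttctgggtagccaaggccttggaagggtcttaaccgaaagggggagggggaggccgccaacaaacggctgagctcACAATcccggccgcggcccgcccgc
Fhl5, chr4:25242853-25243102, minus strand: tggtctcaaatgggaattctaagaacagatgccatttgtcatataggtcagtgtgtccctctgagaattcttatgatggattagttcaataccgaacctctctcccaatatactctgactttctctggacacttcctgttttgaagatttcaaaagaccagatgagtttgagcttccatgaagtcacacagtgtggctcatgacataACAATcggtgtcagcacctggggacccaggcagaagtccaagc
In Rfx2 the TGACG core began 224 bases and the GTTGCC core 116 bases before the start. In Gtf2a1l the GTTGCC core began 188 bases before it. The ACAAT core began 25 bases before the start of Sox30 and 43 bases before that of Fhl5. A match of a few letters is a description of the window, not a binding site.

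The counts recovered from the deposited values summed to 3629929 in the shallowest library, replicate 3 of Prm2+/+, and to 4490411 in the deepest. Replicate 3 of Prm2+/+ also stood apart in the whole table: among the 10607 genes with a mean of at least 30 normalized counts it was the highest library for 27.4% and the lowest for 25.9%, so the fold changes that it moves most are also given without it.

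The transcripts of all 10 regulators were measured in every library, and all 10 (10 of 10) had enough counts for a test. Genotypes were compared with limma on log2(normalized count + 1), fitted to 14893 genes in all 9 libraries. A gene was called at a Benjamini-Hochberg adjusted p under 0.05 together with a log2 fold change, or LFC, of more than 0.5 in size. Of the 10 regulators, 0 were called between Prm2-/- and Prm2+/+, where 27 genes of all tested (0.181%) were called. Between Prm2+/- and Prm2+/+, 0 were called, against 12 genes (0.0806%) of all tested. Between Prm2-/- and Prm2+/-, 0 were called, against 26 genes (0.175%). In each comparison 0 regulators had an unadjusted p under 0.05 in the limma fit to all 9 libraries, whereas 7.33%, 4.24% and 5.44% of all genes did. Both edgeR and DESeq2 also called 0 of the regulators. In DESeq2, Crem had an unadjusted p of 0.0327 between Prm2-/- and Prm2+/- (DESeq2 adjusted p = 1). With so few calls in the whole table, 0 of 10 is not a result about these genes.

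The differences of the 10 genes lay on both sides of 0. Between Prm2-/- and Prm2+/+, 4 regulators had a LFC above 0 and 6 below, with a median of -0.06, and the median of all genes was 0.02. Between Prm2+/- and Prm2+/+ the split was 5 above and 5 below, with a median of -0.04 against 0.01 for all genes. Between Prm2-/- and Prm2+/- it was again 5 and 5, with a median of 0.02 against -0.01. These comparisons share libraries and are not independent of each other. In whole testis, fewer cells of a type and less RNA per cell cannot be told apart.

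**Figure D1:**
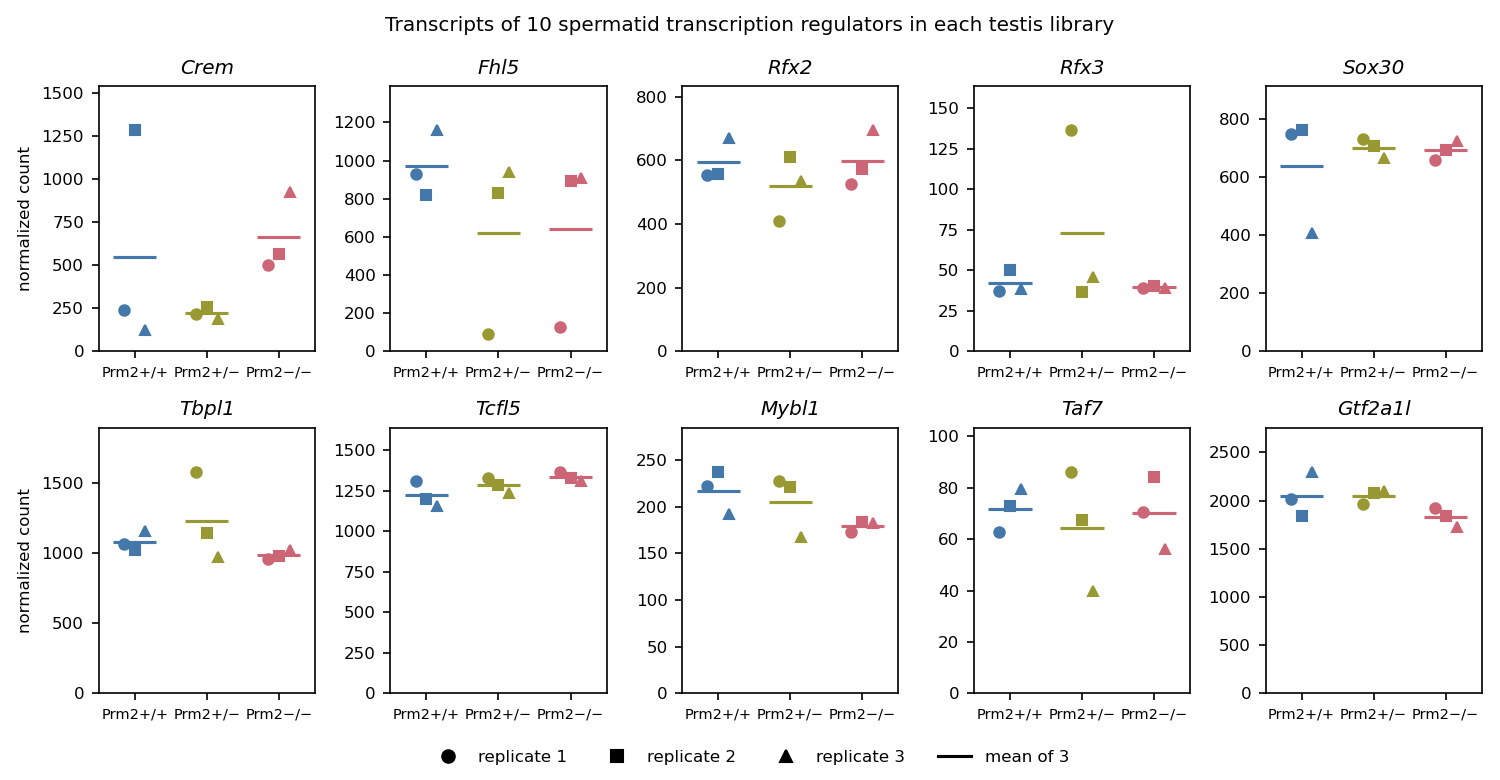
Normalized counts (vertical axis, from 0, scaled for each gene) of the 10 regulators in the 3 genotypes. Symbols are the libraries by replicate number and lines are means of 3. Crem spans 122.7 to 1284 normalized counts, Fhl5 is low in 2 libraries of different genotypes, and Tcfl5 stays between 1159 and 1366.

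Crem and Fhl5 had the largest spread of the 10 genes within genotypes. Crem had 237.6, 1284 and 122.7 normalized counts in replicates 1, 2 and 3 of Prm2+/+. In Prm2+/- it had 217.5, 260.3 and 188.2, and in Prm2-/- 503.5, 568.3 and 928.2. The Prm2+/+ libraries therefore held both the lowest and the highest value of all 9, while the Prm2-/- libraries all lay above the Prm2+/- libraries. The means were 548 ± 640 in Prm2+/+, 222 ± 36.3 in Prm2+/- and 667 ± 229 in Prm2-/- (SD, n = 3 each).

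The LFC of Crem in Prm2-/- over Prm2+/- was 1.54, with a 95% interval of -0.18 to 3.27 (limma adjusted p = 0.951). The fit shares its spread over all 9 libraries, so this interval also reflects the spread of Prm2+/+. The SD was 117% of the mean in Prm2+/+, 16.3% in Prm2+/- and 34.3% in Prm2-/-. Over all alternatives of processing the LFC of Prm2-/- over Prm2+/- stayed between 1.28 and 1.72. Its lowest adjusted p was 0.154, reached when limma was fitted to only the 6 libraries compared. Between Prm2-/- and Prm2+/+ the LFC was 0.94 (95% interval -0.79 to 2.66, limma adjusted p = 0.759). This value rested on single wildtype libraries, since it was 1.91 without replicate 2 of Prm2+/+ (limma adjusted p = 0.168) and 0.22 without replicate 3. It was also smaller in the count models, at 0.29 in edgeR and 0.28 in DESeq2. Between Prm2+/- and Prm2+/+ the LFC was -0.60 (95% interval -2.33 to 1.12, limma adjusted p = 0.859), and it turned to 0.36 without replicate 2 of Prm2+/+, while edgeR and DESeq2 both gave -1.30.

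On GRCm38, Crem (ENSMUSG00000063889) occupies bases 3266048 to 3337748 of the minus strand of chromosome 18. GENCODE M21 gives it 39 transcripts with 27 distinct 3′ ends, spread over 52652 bp. Crem is known for repressor and activator forms made from alternative promoters, exons and polyadenylation sites, and the deposited gene-level value does not separate them. Gm6225, on the plus strand, overlaps Crem and had between 32.0 and 61.9 normalized counts. How the counting treated strand is not given in the sources used here.

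The 3 tested genes whose libraries followed Crem most closely were Ntan1, Txnrd1 and Pold3, by the root mean square (RMS) difference of centred log2 values over the 9 libraries. Their RMS differences were 0.48, 0.49 and 0.49, where the RMS deviation of Crem from its own mean was 1.07. Pold3, a subunit of DNA polymerase delta, had 558.3 normalized counts in replicate 2 of Prm2+/+ and 532.7 and 487.9 in replicates 2 and 3 of Prm2-/-. Its other 6 libraries had between 144.3 and 196.5. Txnrd1, the cytosolic thioredoxin reductase, had 127.5 in replicate 2 of Prm2+/+, from 110.6 to 126.7 in Prm2-/- and from 28.3 to 63.3 in the other 5 libraries. Ntan1, an amidase of N-terminal asparagine, ranged from 7.07 to 33.8, with its highest values in replicate 2 of Prm2+/+ and replicate 3 of Prm2-/-. These genes were picked for their likeness to Crem among all genes tested, so the likeness is a description. None of the other 9 regulators came as close, with RMS differences from 0.94 for Sox30 to 1.65 for Fhl5.

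Fhl5, the CREM coactivator, fell into high and low libraries. It had 927.4, 820.9 and 1159 normalized counts in Prm2+/+. In Prm2+/- it had 92.9 in replicate 1 and 827.6 and 941.9 in replicates 2 and 3. In Prm2-/- it had 130.4 in replicate 1 and 891.0 and 907.1 in replicates 2 and 3. The low libraries were thus 1 of Prm2+/- and 1 of Prm2-/-, and the other 7, of all 3 genotypes, overlapped. The step from 130.4 to 820.9 was 6.29-fold, and the low libraries rested on 94 and 144 recovered counts, where the others had at least 766.

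The LFC of Fhl5 was -1.02 between Prm2-/- and Prm2+/+ (95% interval -3.36 to 1.33, limma adjusted p = 0.796), and -0.09 without replicate 1 of Prm2-/-. In edgeR it was -0.58 and in DESeq2 -0.59. The LFC of Prm2+/- over Prm2+/+ was -1.20 (95% interval -3.54 to 1.15, limma adjusted p = 0.842), and -0.12 without replicate 1 of Prm2+/-, with -0.64 in both edgeR and DESeq2. The remaining LFC, of Prm2-/- over Prm2+/-, was 0.18 (95% interval -2.17 to 2.52). Among 10607 genes with a mean of at least 30 normalized counts, 7 were at least 4-fold lower in both libraries with low Fhl5 than in any of the other 7, and 1 was at least 4-fold higher. Besides Fhl5 the lower ones were Stil, a centriole protein, the stress gene Ddit4, Rad51c, Mmp28, Gm44170 and AC160334.3. The higher one was Bap1, a deubiquitinase. All were named after their values were seen, and other pairs of libraries were not counted in this way. Crem itself was not at an end of its range in either library, with 217.5 and 503.5. Fhl5 (ENSMUSG00000028259, chromosome 4 of GRCm38, 25199908 to 25242876, minus strand) has 2 transcripts with 1 common 3′ end, and Gm11906 overlaps it on the plus strand.

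**Figure D2:**
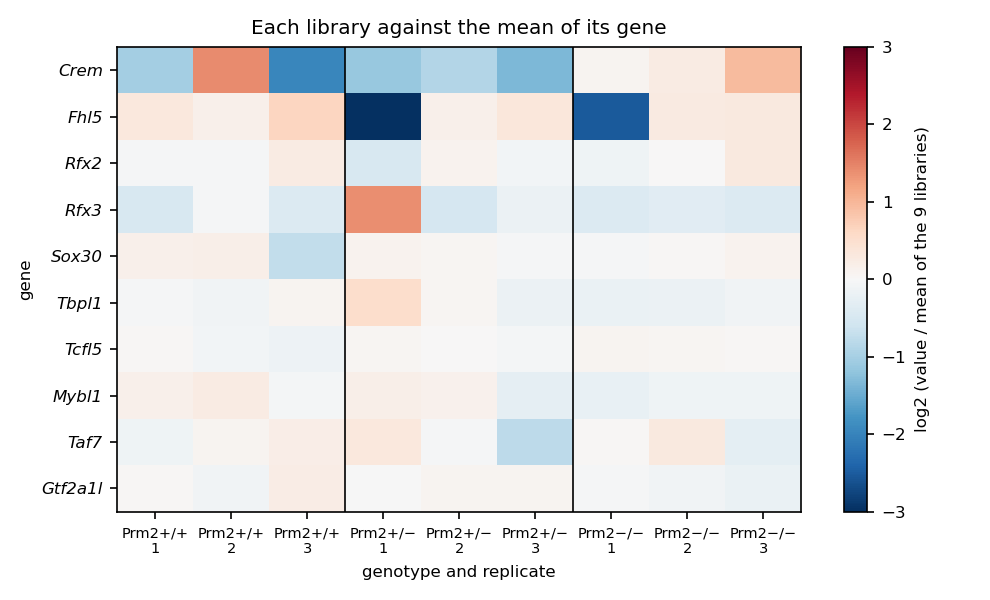
Each regulator (rows) in each library (columns, by genotype and replicate), as log2 of its value over the mean of its 9 libraries (colour scale). The deepest blue cells are Fhl5 in replicate 1 of Prm2+/- and of Prm2-/-, Crem has strong colours of both signs within Prm2+/+, and Rfx3 is red in replicate 1 of Prm2+/- only.

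Rfx2, the main X-box factor of spermatids, had 553.0, 558.3 and 670.7 normalized counts in Prm2+/+. It had 410.3, 610.2 and 534.6 in Prm2+/- and 525.3, 572.3 and 694.8 in Prm2-/-. The genotypes overlapped, and the lowest value was again replicate 1 of Prm2+/-. The LFC between Prm2-/- and Prm2+/+ was 0.0041, with a 95% interval of -0.39 to 0.40 (limma adjusted p = 0.997), an interval that lies within the threshold of 0.5 on both sides. Set against Prm2+/+, Prm2+/- gave -0.21 (95% interval -0.61 to 0.19), and between Prm2-/- and Prm2+/- 0.21 (95% interval -0.18 to 0.61). Without replicate 1 of Prm2+/- these became -0.051 and 0.055. Rfx2 (ENSMUSG00000024206) lies on chromosome 17 from 56775897 to 56831013 on the minus strand.

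Rfx3, its relative in ciliated cells, had 37.1, 50.4 and 38.7 normalized counts in Prm2+/+. In Prm2+/- it had 136.4, 36.5 and 45.9, and in Prm2-/- 38.9, 40.6 and 39.1. Only replicate 1 of Prm2+/- stood out, 2.71-fold above the next library, and the other 8 lay between 36.5 and 50.4. The LFC was -0.07 between Prm2-/- and Prm2+/+ (95% interval -1.08 to 0.93, limma adjusted p = 0.981). For Prm2+/- against Prm2+/+ it was 0.55 (95% interval -0.46 to 1.55), and -0.023 without that library. Against Prm2+/- the LFC of Prm2-/- was -0.62 (95% interval -1.63 to 0.38), and -0.05 without it. Rfx3 (ENSMUSG00000040929, chromosome 19, 27761721 to 28011166, minus strand) has 8 transcripts with 8 distinct 3′ ends and overlaps Gm20407 and Gm8412 on the plus strand.

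Sox30 had 748.8, 761.9 and 407.7 normalized counts in Prm2+/+. It had 730.6, 706.1 and 666.2 in Prm2+/- and 659.3, 693.1 and 725.4 in Prm2-/-. Of the 9 libraries only replicate 3 of Prm2+/+ was low, and the other 8 lay between 659.3 and 761.9. The LFC between Prm2-/- and Prm2+/+ was 0.17 (95% interval -0.34 to 0.68, limma adjusted p = 0.843), and -0.13 without that library. The LFC of Prm2+/- over Prm2+/+ was 0.19 (95% interval -0.33 to 0.70), and -0.11 without it. The LFC of Prm2-/- over Prm2+/- was -0.02 (95% interval -0.53 to 0.50). Sox30 (ENSMUSG00000040489, chromosome 11, 45980310 to 46017994, plus strand) has 1 annotated transcript and overlaps no other gene.

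Tcfl5, a basic helix-loop-helix factor, was the steadiest of the 10 genes. It had 1314, 1202 and 1159 normalized counts in Prm2+/+, 1332, 1289 and 1239 in Prm2+/-, and 1366, 1332 and 1309 in Prm2-/-. The genotypes overlapped, with means of 1225 ± 80.0, 1286 ± 46.5 and 1336 ± 28.3 (SD, n = 3 each). The LFC between Prm2-/- and Prm2+/+ was 0.13 with a 95% interval of -0.04 to 0.29 (limma adjusted p = 0.729). Set against Prm2+/+, Prm2+/- gave 0.07 (95% interval -0.09 to 0.24), and between Prm2-/- and Prm2+/- 0.05 (95% interval -0.11 to 0.22). Each of these intervals lies within 0.5 of 0. Col9a3 overlaps Tcfl5 (ENSMUSG00000038932, chromosome 2, 180621956 to 180642708, minus strand) on the plus strand.

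Mybl1 (A-MYB) was at its lowest on average in Prm2-/-. It had 222.4, 236.8 and 192.3 normalized counts in Prm2+/+, 227.4, 221.1 and 167.0 in Prm2+/-, and 173.0, 183.7 and 182.7 in Prm2-/-. The 3 Prm2-/- libraries all lay below the 3 Prm2+/+ libraries, while Prm2+/- overlapped both. The LFC between Prm2-/- and Prm2+/+ was -0.27 with a 95% interval of -0.60 to 0.07 (limma adjusted p = 0.721). For Prm2+/- against Prm2+/+ it was -0.09 (95% interval -0.42 to 0.24), and between Prm2-/- and Prm2+/- -0.18 (95% interval -0.51 to 0.16). Mybl1 (ENSMUSG00000025912) lies on chromosome 1 from 9667415 to 9700209 on the minus strand and overlaps no other gene.

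Tbpl1 was the other gene whose Prm2-/- libraries all lay below those of Prm2+/+. It had 1066, 1019.12 and 1157 normalized counts in Prm2+/+, 1576, 1143 and 969.3 in Prm2+/-, and 958.1, 977.2 and 1019.01 in Prm2-/-. The lowest Prm2+/+ and the highest Prm2-/- library differed by less than 1 count. The LFC between Prm2-/- and Prm2+/+ was -0.13 (95% interval -0.51 to 0.24, limma adjusted p = 0.83), a difference that did not pass the test, and -0.082 without replicate 3 of Prm2+/+. The LFC of Prm2+/- over Prm2+/+ was 0.16 (95% interval -0.22 to 0.53), and -0.036 without replicate 1 of Prm2+/-, the highest library. Set against Prm2+/-, Prm2-/- gave -0.29 (95% interval -0.66 to 0.08), which became -0.096 without replicate 1 and -0.45 without replicate 3 of Prm2+/-. Tbpl1 (ENSMUSG00000071359, chromosome 10, 22703879 to 22731938, minus strand) overlaps Mir7663 on its own strand and Slc2a12 on the other.

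Gtf2a1l, for the large TFIIA subunit of germ cells, had 2019, 1839.99 and 2295.0 normalized counts in Prm2+/+. It had 1967, 2084 and 2096 in Prm2+/- and 1927, 1840.77 and 1727 in Prm2-/-. The Prm2-/- libraries all lay below the Prm2+/- libraries and replicates 1 and 2 lay within the range of Prm2+/+. The LFC was -0.16 in both comparisons of Prm2-/-, with a 95% interval of -0.37 to 0.05 against Prm2+/+ (limma adjusted p = 0.733) and of -0.37 to 0.05 against Prm2+/- (limma adjusted p = 0.963). The first became -0.075 without replicate 3 of Prm2+/+, and -0.23 without replicate 2 (limma adjusted p = 0.55). Set against Prm2+/+, Prm2+/- gave 0.0038 (95% interval -0.21 to 0.22). Gtf2a1l (ENSMUSG00000024154) lies on chromosome 17 from 88668660 to 88715152 on the plus strand and overlaps no other gene.

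Taf7 had 62.7, 72.9 and 79.6 normalized counts in Prm2+/+, 86.0, 67.6 and 39.8 in Prm2+/-, and 70.6, 84.2 and 56.0 in Prm2-/-. The genotypes overlapped, with means of 71.7 ± 8.48, 64.5 ± 23.3 and 70.3 ± 14.1 (SD, n = 3 each). The LFC between Prm2-/- and Prm2+/+ was -0.04 (95% interval -0.70 to 0.62, limma adjusted p = 0.987). For Prm2+/- against Prm2+/+ it was -0.21 (95% interval -0.87 to 0.45), and between Prm2-/- and Prm2+/- 0.17 (95% interval -0.49 to 0.83). Taf7 (ENSMUSG00000051316, chromosome 18, 37640491 to 37644204, minus strand) has 1 transcript and overlaps 3 predicted genes on the plus strand.

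In these values 2 of the 10 regulators, Tbpl1 and Mybl1, did not overlap between Prm2-/- and Prm2+/+, where 14% of all genes tested did not overlap in either direction. Between Prm2+/- and Prm2+/+, 0 of the 10 failed to overlap, and 9.44% of all genes did. Between Prm2-/- and Prm2+/-, 2 of the 10 did not overlap, Crem above and Gtf2a1l below, and 14.7% of all genes did not. Counts of 2 in 10 are close to these backgrounds.

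**Figure D3:**
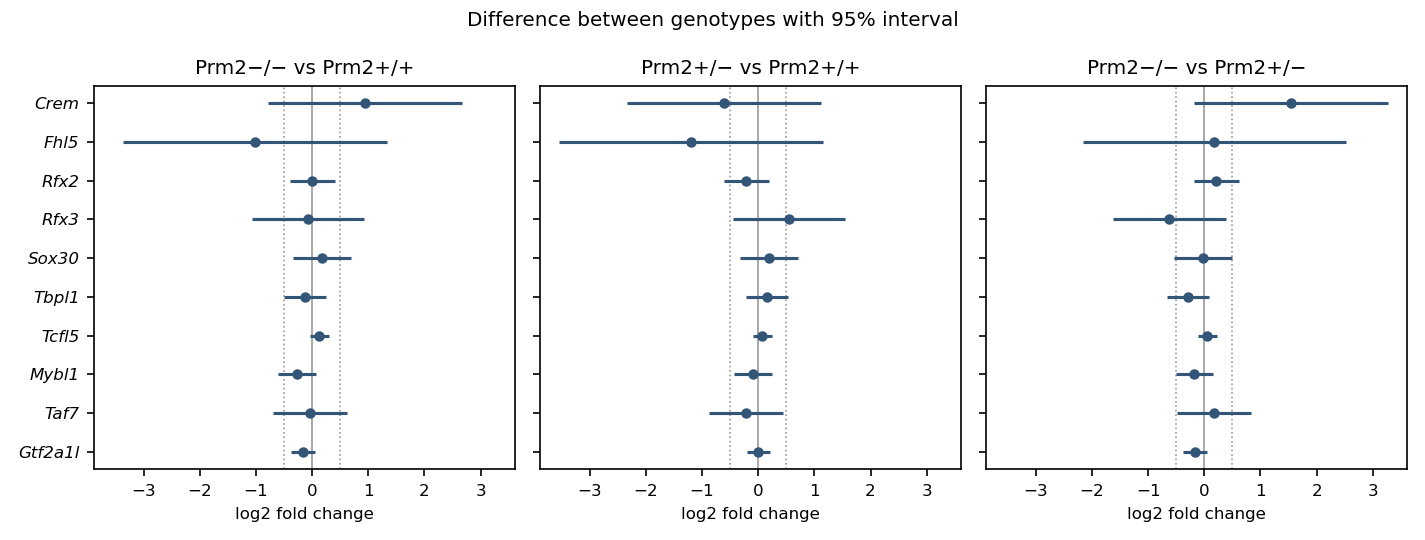
LFC of each regulator (points) with its 95% interval (bars) from limma in the 3 comparisons of genotypes. Dotted lines mark the threshold of 0.5. All intervals include 0, those of Tcfl5 and Gtf2a1l lie between the dotted lines throughout, and those of Crem, Fhl5 and Rfx3 are wide.

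The same genes had the widest intervals and the largest spread between libraries, with Fhl5 ahead of Crem on the log2 scale and Crem ahead of Fhl5 in the coefficient of variation. The coefficient of variation (CV) within genotypes was 70.9% for Crem, 59.4% for Fhl5 and 44.8% for Rfx3, against a median of 16.4% over the 10607 genes with a mean of at least 30. Counting error alone would give 4.59%, 3.65% and 13.8%. Taf7 followed with 24.8%, where counting error gives 11.99%. Sox30 (18.5%), Rfx2 (15.5%) and Tbpl1 (15.3%) lay near the median gene, and Mybl1 (11.3%), Gtf2a1l (7.46%) and Tcfl5 (4.48%) below it. The highest library exceeded the lowest 12.5-fold for Fhl5, 10.5-fold for Crem and 3.73-fold for Rfx3. A ratio at least as large was found in 8.54%, 9.63% and 17.8% of the 10607 genes.

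**Figure D4:**
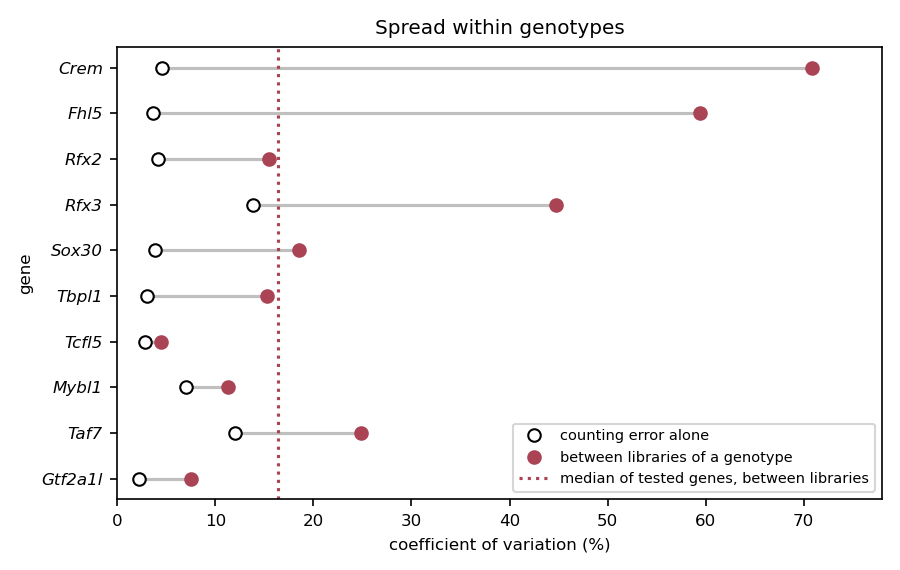
CV (%) of each regulator between libraries of a genotype (filled points) and the CV that counting error alone would give (open points). The dotted line is the median of 16.4% over genes with a mean of at least 30 normalized counts. Crem, Fhl5 and Rfx3 lie far to the right of it and Tcfl5 far to the left.

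At the level of libraries, 2 were at an end of the range for 5 regulators each. Replicate 1 of Prm2+/- was the highest library for Rfx3, Tbpl1 and Taf7 and the lowest for Fhl5 and Rfx2, so it was at an end for 5 of the 10 regulators. Over the same 10607 genes it was highest for 9.03% and lowest for 9.04%. Replicate 3 of Prm2+/+ was highest for Fhl5 and Gtf2a1l and lowest for Crem, Sox30 and Tcfl5. Over the same 10607 genes it was highest for 27.4% and lowest for 25.9%, far larger shares than those of replicate 1 of Prm2+/-.

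The genes around the 10 regulators were described by 4 lists. Among 30 tested of 35 relatives and partners (CREB, FHL, RFX, SOX, MYB, TFIIA and TFIID proteins and cofactors), 0 were called in each of the 3 comparisons, and 1, 0 and 1 had an unadjusted p under 0.05 in limma. Of the 30, 14 had a LFC above 0 in Prm2-/- against Prm2+/+, with a median of -0.02. Gtf2a2, the small TFIIA subunit, had 45.3 normalized counts in replicate 3 of Prm2+/+ and from 965.2 to 1080 in the other 8 libraries, and its LFC of 1.41 (limma adjusted p = 0.755) became -0.093 without that library. Sox8, a factor of Sertoli cells, had 0 counts in replicate 3 of Prm2+/- and in replicate 2 of Prm2-/-, which allows up to 3, and at most 30.01 normalized counts elsewhere. Its LFC of -1.29 (limma adjusted p = 0.821) depends on the added count of 1.

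Among the 22 tested post-meiotic spermatid genes, a list that holds several known CREM targets, 0 were called in each comparison, and 4, 1 and 2 had an unadjusted p under 0.05. In Prm2-/- against Prm2+/+, 10 of the 22 had a LFC above 0, with a median of -0.01. Akap4, the scaffold of the fibrous sheath, had 208.1 and 194.5 normalized counts in replicates 1 and 3 of Prm2+/+ and 272.2 in replicate 3 of Prm2+/-. Its other 6 libraries had between 1910 and 2148, among them all 3 of Prm2-/-, and its LFC between Prm2-/- and Prm2+/+ was 2.22 (95% interval -0.19 to 4.63, limma adjusted p = 0.71), or 1.63 without replicate 3 of Prm2+/+. Ldhc, the germ cell lactate dehydrogenase, had 2505 in replicate 3 of Prm2+/+ and from 27414 to 36393 elsewhere (LFC 1.06, limma adjusted p = 0.761), and its LFC was -0.15 without that library. Across the list the summed level was between 291073 and 317833 in Prm2+/+, between 295993 and 318814 in Prm2+/- and between 299486 and 312067 in Prm2-/-, so the ranges overlapped.

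Among 11 tested meiotic prophase genes, where MYBL1 and TCFL5 act, 0 were called, and 1, 0 and 0 had an unadjusted p under 0.05. A LFC above 0 in Prm2-/- against Prm2+/+ was seen for 6 of the 11, with a median of 0.01. Mael, a piRNA pathway protein, had between 168.4 and 230.2 normalized counts in replicates 1 and 2 of Prm2+/- and replicates 1 and 3 of Prm2-/-, and between 4130 and 4851 in the other 5 libraries. Its LFC of -2.999 between Prm2-/- and Prm2+/+ had a 95% interval of -6.47 to 0.47 (limma adjusted p = 0.717). Ccna1, the cyclin of late spermatocytes, had 6.63 in replicate 3 of Prm2+/+ and from 490.8 to 644.3 elsewhere (LFC 1.86, limma adjusted p = 0.76), and its LFC was -0.24 without that library. Replicate 1 of Prm2+/- and of Prm2-/-, the low libraries of Fhl5, were among the low libraries of Mael, together with 2 others. Akap4 was in its high range in both, with 1935 and 2077 normalized counts. Whether Fhl5 and Mael share a pattern was not tested.

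Among 12 tested ciliary and flagellar genes, the class that RFX factors control, 0 were called, and 1, 0 and 1 had an unadjusted p under 0.05. The LFC of Prm2-/- over Prm2+/+ was above 0 for 7 of the 12, with a median of 0.06. Spag16, of the axoneme's central apparatus, had 57.5 in replicate 3 of Prm2+/+ and from 513.2 to 680.4 elsewhere (LFC 1.13, limma adjusted p = 0.75), and its LFC was 0.066 without that library. Ift88, of the intraflagellar transport machinery, had 115.0, 128.6 and 168.0 in Prm2+/+, 154.2, 131.5 and 105.2 in Prm2+/-, and 248.1, 270.9 and 146.8 in Prm2-/-. Its LFC was 0.66 against Prm2+/+ (limma adjusted p = 0.65) and 0.73 against Prm2+/- (limma adjusted p = 0.878), and the genotypes overlapped in replicate 3 of Prm2-/-. Without replicate 3 of Prm2+/+, a run added after its values were seen, each of the 4 lists again had 0 calls in each of the 3 comparisons.

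**Figure D5:**
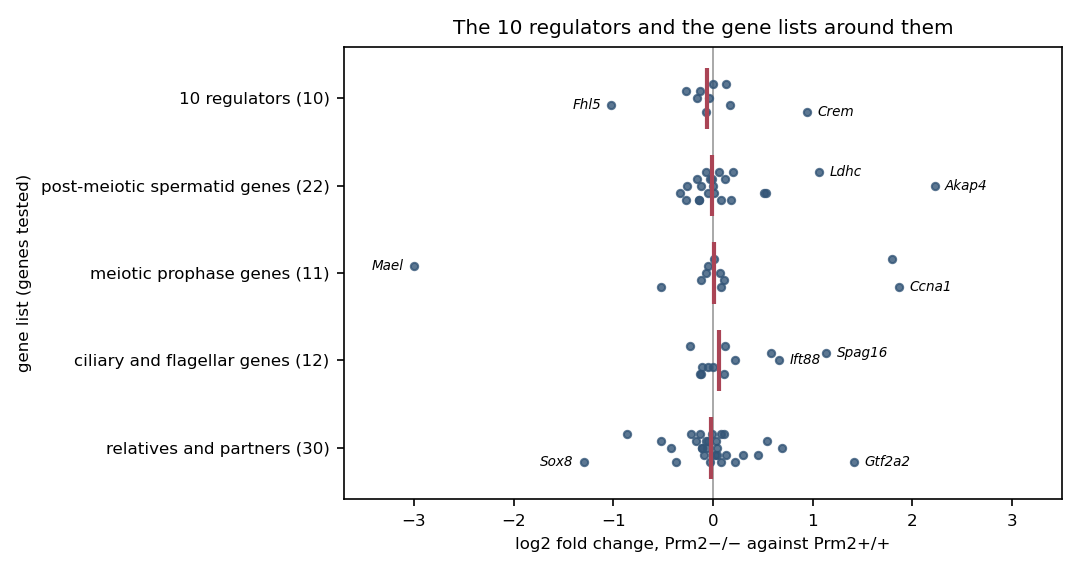
LFC between Prm2-/- and Prm2+/+ (horizontal axis) of the 10 regulators and of the tested genes of 4 lists (rows, number of genes in brackets). Points are genes and vertical bars are medians. The medians lie between -0.06 and 0.06, and 0 of the points passed the threshold of the test.

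The targeted gene and the cell types of the testis give the setting of these values. The normalized count of Prm2 was 33046 ± 5732 (SD, n = 3) for Prm2+/+, 31891 ± 2287 for Prm2+/- and 37810 ± 4344 for Prm2-/-, so its 3′ reads did not check the labels. The summed markers of elongating spermatids were between 223298 and 243857 in all libraries, those of spermatocytes between 2315 and 3302 and of spermatogonia between 134.5 and 238.7. Round spermatid markers summed to 3241 to 3506 in Prm2+/+, 3274 to 3492 in Prm2+/- and 3526 to 3674 in Prm2-/-, so the Prm2-/- libraries lay above all others, and 0 of the 3 tested had an unadjusted p under 0.05 between Prm2-/- and Prm2+/+. Sertoli cell markers summed to between 671.8 and 870.2, Leydig cell markers to between 1564 and 2281, macrophage markers to between 137.0 and 198.8, endothelial markers to between 9.64 and 29.2 and the globins of blood to between 675.6 and 1205. Peritubular cell markers summed to 292.8 to 325.0 in Prm2+/+, 253.9 to 276.8 in Prm2+/- and 226.4 to 270.9 in Prm2-/-, and 2 of the 3 tested had an unadjusted p under 0.05 between Prm2-/- and Prm2+/+. In all 10 marker lists 0 genes were called, and the part of these cells in the values of the regulators was not tested.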

How the data were processed

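The authors trimmed the QuantSeq reads with Trim Galore 0.4.5, mapped them to GRCm38 with HISAT2 2.1, quantified with StringTie 1.3.3, prepared gene-level counts, removed pseudogenes by biotype and used DESeq2. What the authors deposited is a signal: gene counts that they had scaled with 1 size factor per library (normalized counts). Each library's values are multiples of its own step (100% within 0.001), so counts could be recovered (weaker for replicate 1 of Prm2+/-, whose step is near 1). These counts derive from coverage, so they need not be reads, and intervals from counts cover counting error only. Of 38685 rows, 38520 matched GENCODE M21, and 0 columns lacked a sample.

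limma 3.58.1 (lmFit, eBayes with trend) was fitted to log2(normalized count + 1) of the 14893 genes kept by filterByExpr, with genotype as the only term, and p-values were adjusted over all of them. An LFC on this scale understates changes of low genes. The p-values measure the spread between libraries. The alternatives were TMM factors, pseudocounts of 0.5 and 5, other count filters, only the 6 libraries compared, a replicate block, edgeR 4.0.16, DESeq2 1.42.0 on recovered counts (R 4.3.3), and leaving out each library. Leaving out replicate 3 of Prm2+/+ for the lists was added after seeing the data.

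The 10 genes and all lists were chosen with earlier results of these data known. Named were the 10 genes, the 2 genes of each list with the largest absolute LFC between Prm2-/- and Prm2+/+ where none was called, the 3 genes most like Crem, and Prm2. Genes that overlap a regulator were named besides, as were Stil, Ddit4, Rad51c, Mmp28, Gm44170, AC160334.3 and Bap1, picked by their values in the low libraries of Fhl5. Odf2, Tnp1, Hspa1l and Pgk2 were named after their values were seen, for a limma unadjusted p under 0.05 between Prm2-/- and Prm2+/+. The CV within genotypes is the root mean square of the CVs of the 3 genotypes, each the SD over the mean of that genotype. Tables and figures used Python 3.11.15, pandas 2.3.3, numpy 2.4.6 and matplotlib 3.10.9. The limma script was tested on simulated data.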

Additional observations from a re-analysis of the deposited data

How the results depend on the processing

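In every alternative run 0 of the 10 regulators were called. An unadjusted p under 0.05 was reached in some alternative run by Crem, Tbpl1, Tcfl5, Mybl1 and Gtf2a1l. For Crem between Prm2-/- and Prm2+/+ it was 0.00104 in limma without replicate 2 of Prm2+/+ (limma adjusted p = 0.168). For Crem between Prm2-/- and Prm2+/- the lowest unadjusted p over the limma, edgeR and DESeq2 runs was 0.000912. The lowest adjusted p there was 0.154. The counts of all genes called, which give the background, moved more. For Prm2-/- against Prm2+/+, Prm2+/- against Prm2+/+ and Prm2-/- against Prm2+/- they were 27, 12 and 26 with limma, 140, 66 and 113 with DESeq2, and 9, 1 and 11 with at least 10 counts in every library, which leaves fewer genes to test. With a count above 0 in 1 library as the filter the second was 21. With only the 6 libraries compared the first and last were 50 and 52. With each library left out in turn the counts were 28 to 64, 9 to 44 and 23 to 50, highest without replicate 2 of Prm2+/+ (the first 2) and replicate 1 of Prm2+/- (the last). The cause was not tested. Samples with the same replicate number did not deviate together over the tested genes (correlations of -0.0365 to 0.0423, against -0.0376 to 0.0456 for different numbers). These values gave no sign of pairing by number, and they cannot exclude a pairing that touches few genes. With the replicate block the counts were 15, 6 and 14, and 0 regulators were called.

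Of the 30 LFCs of the regulators, 16 kept their sign in all alternatives, and 24 of 540 values had the other sign. Of the comparison of Prm2-/- with Prm2+/+, leaving out 1 library gave -0.11 to 0.094 for Rfx2, -0.16 to 0.061 for Rfx3, -0.13 to 0.32 for Sox30 and -0.18 to 0.11 for Taf7. For Prm2+/- against Prm2+/+ it gave -1.32 to 0.36 for Crem, -0.023 to 0.91 for Rfx3, -0.11 to 0.34 for Sox30, -0.036 to 0.31 for Tbpl1, -0.17 to 0.051 for Mybl1, -0.45 to 0.094 for Taf7 and -0.072 to 0.088 for Gtf2a1l, whose LFC was -0.0011 with DESeq2. For Prm2-/- against Prm2+/- it gave -0.90 to 1.10 for Fhl5, -0.053 to 0.018 for Sox30 and -0.14 to 0.41 for Taf7. The 95% interval reached 2.34 on either side for Fhl5 and 1.73 for Crem, against 0.17 for Tcfl5. For Fhl5 and Crem the spread between libraries was far above counting error. For Tcfl5 the CV was 4.48%, where counting error gives 2.76%.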
